A study of Mus musculus with 18 samples.

Results

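The brush border is the layer of microvilli on the surface of enterocytes, the absorptive cells of the small intestine, and the enzymes held in its membrane carry out the last steps of digestion. Sites of 5-methylcytosine (m5C) are described here in the mRNAs of 9 genes, 8 of which code for enzymes of this membrane. The genes are those of the peptidases Anpep, Dpp4, Mep1a and Mep1b, the disaccharidases Sis, Lct and Mgam, the intestinal alkaline phosphatase Alpi and, from the basolateral side of the same cells, the ferroxidase Heph. The 9 genes were chosen from 21013 annotated protein-coding genes with measured sites of these data in view, so that the presence of sites in them is no finding. A member site is a listed cytosine in an exon of a RefSeq transcript of a member, on its strand. Over all libraries 130 distinct member sites were listed, out of 18059 distinct mRNA sites and 25890 distinct sites of any kind. Of the 9 genes, 8 carried a site, and Mep1a carried 0 in every library.

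The samples are labelled as primary neurons from the cortex of C57BL/6 mouse embryos at day 18. Control neurons were left untreated. Neurons of the other groups went without oxygen and glucose for 1.5 h (OGD/R 1.5 h) or 3 h (OGD/R 3 h) and were then reoxygenated for 24 h. The gas during deprivation is given as 94% N2, 21% O2 and 5% CO2, which add up to 120%, so the oxygen level that was reached is not known. Each group has 3 libraries of bisulfite-treated RNA, in which unmethylated cytosine is read as thymine and m5C stays cytosine. The 9 mock libraries, with no bisulfite, were not analysed here.

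The deposited file of a library lists its sites with a score that grows with the coverage and the methylation level of a site together and is capped at 1000. It gives neither coverage nor level, and the read depth is unknown. The number of sites in a library is given instead. Control replicates 1, 2 and 3 held 6021, 6254 and 5907 sites, OGD/R 1.5 h replicates held 5423, 5745 and 5684, and OGD/R 3 h replicates held 7772, 7266 and 7376. Coverage was compared in the part of the study's site table that was held. Only sites with coverage in all 3 replicates entered, a choice that can narrow the spread. In control and in OGD/R 3 h coverage varied between replicates by less than sampling noise alone would give. Each group was for this reason treated as 1 sample, OGD/R 1.5 h included, for which this was not tested. The study calls them replicates of a sequencing pool, and whether separate cultures lay behind them is not given. No p-value is given, and mean ± SD describes the spread between sequencing libraries.

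The labelled cell type was compared with lists of marker genes, which were chosen with earlier results of these data known. A high count in a list was thus partly fixed by its choice, and a count of 0 may be too. Over all protein-coding genes 2607 (12.4%) carried a site in at least 1 library. None of the 22 neuronal genes, among them Tubb3, Map2, Rbfox3 and Snap25, carried a site in any of the 9 libraries. Of 13 genes of glia and vessels, only Aldh1l1 carried sites, 3 in all. All 16 enterocyte genes and all 6 goblet cell genes carried at least 1. The enterocyte list held 83, 85 and 81 sites in control libraries, against 46, 41 and 47 in OGD/R 1.5 h and 119, 114 and 125 in OGD/R 3 h, led by the apolipoprotein genes Apoa4 with 54 distinct sites, Apob with 45 and Apoa1 with 39, the last tied with Muc13. Of these leading genes only Apob rose, from 4, 6 and 6 sites in control to 21, 21 and 19 in OGD/R 3 h. Apoa4 did not rise, with 19, 24 and 19 sites in control and 13, 15 and 17 in OGD/R 3 h. Apoa1, with 22, 17 and 17 and then 17, 18 and 21, overlapped between these groups, as did Muc13, with 8, 9 and 15 and then 11, 10 and 10. Not every other gene of the list rose, as Fabp1 went from 4 in each control library to 2, 1 and 2. The goblet cell list held 23, 21 and 16 sites in control, against 15, 16 and 14 in OGD/R 1.5 h and 103, 99 and 102 in OGD/R 3 h. Its leading genes were Fcgbp, Muc2 and Zg16, which code for proteins of mucus and of secretory granules. Most of these sites were in Fcgbp, with 12, 13 and 10 in control and 72, 69 and 66 in OGD/R 3 h. Clca1 went the other way, from 3, 4 and 3 to 0, 2 and 1. Anpep, Dpp4 and the meprins are also known from the proximal tubule of the kidney. Of 8 kidney genes 0 carried a site, which is too few genes to tell from the share of all genes, as is the count for glia and vessels. Whether the count of 0 among the 22 neuronal genes differs from that share was not tested. Of 9 genes of blood and neutrophils 5 carried sites, 52 in each OGD/R 3 h library and 0 in all others. The study identified its cultures by antibody staining for beta-III tubulin and GFAP. From expression data it also reported that genes down-regulated after OGD/R were enriched in terms for neuronal processes and components, such as axon. Neither the staining nor the expression was analysed here. The site lists do not settle which cells were sequenced. A gene without a listed site may still be expressed, since the files hold only sites past the limits on level and coverage. The groups are called by their labels from here on.

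**Figure D1:**
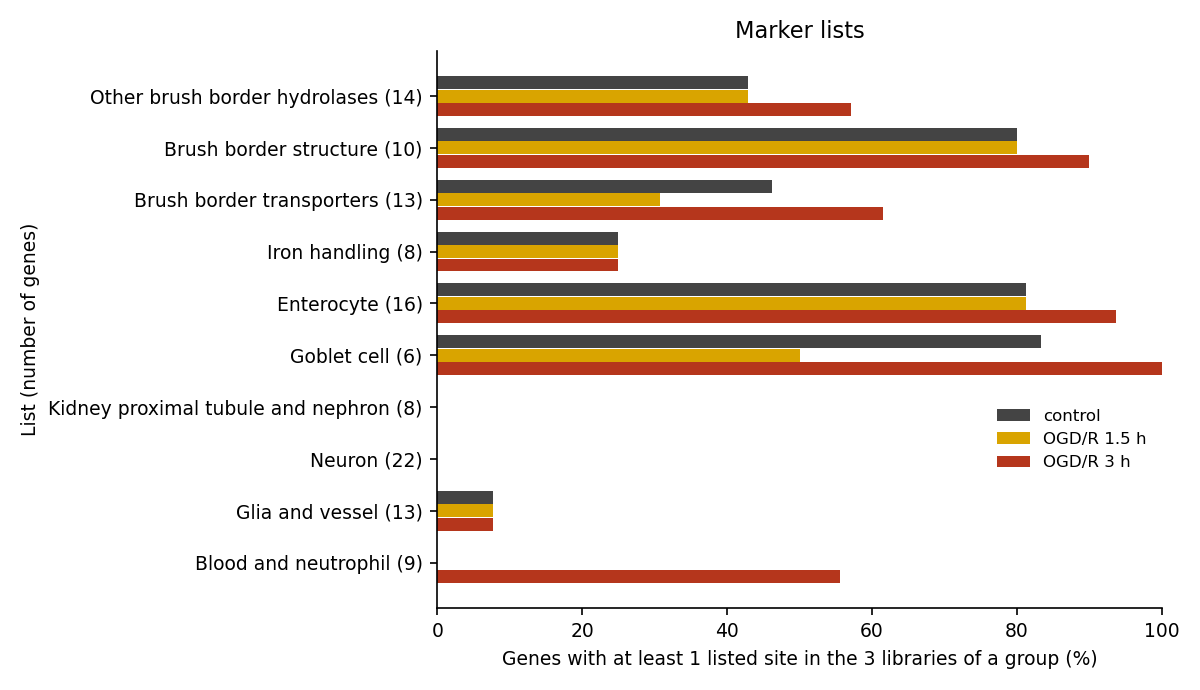
The horizontal axis gives the percent of the genes of each list with at least 1 site in any library of a group, with colours for the groups and the number of genes in parentheses. The neuron and kidney lists are at 0 in all groups, while the enterocyte list has sites in 13 of 16 genes in control.

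Sites named below are shown with the 10 nt on either side, 5′ to 3′ on the strand of the mRNA, with the listed cytosine in capitals. They were read from mm10 and carry RefSeq annotation. The first 4 and the Mgam site were listed in all 3 libraries of at least 2 groups, as was the Mep1b site at 21097321, and the others were listed in more libraries than any other site of their gene, with ties settled by the score. The named sites of Mep1b and Sis are given by position only, that of Sis because its window runs past an exon edge. The Anpep site in exon 21 was chosen after its values had been seen. Each is given with its exon and its distance from the first base of the start codon.
Anpep, exon 2, 48 nt, start codon region, chr7:79842193-79842213, minus strand: cttgggcatcCtgttgggtgt
Anpep, exon 7, 1201 nt, CDS, chr7:79838966-79838986, minus strand: gtgactgtggCttggtggaat
Anpep, exon 7, 1221 nt, CDS, chr7:79838946-79838966, minus strand: tgatctgtggCtgaacgaggg
Anpep, exon 17, 2307 nt, CDS, chr7:79826910-79826930, minus strand: gtgtagggacCtggtcgttga
Anpep, exon 21, 2843 nt, stop codon region, chr7:79822271-79822291, minus strand: ccaacatcgaCtgggtgaagg
Mgam, exon 21, 2341 nt, CDS, chr6:40672484-40672504, plus strand: atgcaacttcCtggagacaag
Lct, exon 8, 3425 nt, CDS, chr1:128300319-128300339, minus strand: tccaaagggaCgtggaagccg
Dpp4, exon 26, 2705 nt, 3′ untranslated region, chr2:62332185-62332205, minus strand: gggagtatggCtagaaaccca
Alpi, exon 11, 1367 nt, CDS, chr1:87098890-87098910, minus strand: gcggggaggaCgtggccatat
Heph, exon 1, -341 nt, 5′ untranslated region, chrX:96455592-96455612, plus strand: gtgtgtagagCtggagtgaag

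Among the 9 genes together, libraries labelled OGD/R 3 h listed most sites and libraries labelled OGD/R 1.5 h fewest. Control replicates 1, 2 and 3 held 26, 30 and 31 member sites, OGD/R 1.5 h replicates 22, 22 and 24, and OGD/R 3 h replicates 48, 35 and 40. The means were 29.0 ± 2.65, 22.7 ± 1.15 and 41.0 ± 6.56 sites (SD, 3 libraries), with no overlap between groups. All mRNA sites moved the same way, at 3944 ± 180, 3604 ± 128 and 4914 ± 308 per library. As a share of the mRNA sites of a library, member sites made up 0.736 ± 0.0742% in control, 0.629 ± 0.0108% in OGD/R 1.5 h and 0.832 ± 0.0864% in OGD/R 3 h. The share of OGD/R 3 h overlapped that of control, with 0.739% to 0.911% against 0.669% to 0.816%. The log2 ratio of the means, OGD/R 3 h to control, was 0.50 for the number of member sites and 0.18 for their share of mRNA sites, and the latter was smaller than its spread between libraries of 0.21. For OGD/R 1.5 h these ratios to control were -0.36 and -0.23. Both comparisons share the control libraries. As a site needs a coverage of at least 10 to be listed, the number of listed sites can move with coverage and so with the abundance of an mRNA. This was not tested, and fewer cells of a type and less RNA per cell cannot be told apart here.

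In each group 7 of the 9 genes carried a site in the union of its libraries. Over all 21013 protein-coding genes this share was 8.62% in control, 8.31% in OGD/R 1.5 h and 6.90% in OGD/R 3 h. Since the members were chosen with measured sites of these data in view, nothing is read from their count. Of the 8 members with a site in control or OGD/R 3 h, Lct and Mgam had more sites in every OGD/R 3 h library than in any control library, and Dpp4 and Mep1b had fewer. Among all 2267 genes with a site in these groups, 18.6% were higher and 18.7% were lower by the same rule. Of 7 members with a site in control or OGD/R 1.5 h, 0 were higher in OGD/R 1.5 h and Dpp4 was lower, against a background of 8.55% and 15.1% of 2328 genes. Between OGD/R 3 h and OGD/R 1.5 h, Lct and Mgam were higher in the former and Mep1b was lower, against 19.9% and 13.4% of 2189 genes. Such counts of members lie near the background and are no result about the members as a group.

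**Figure D2:**
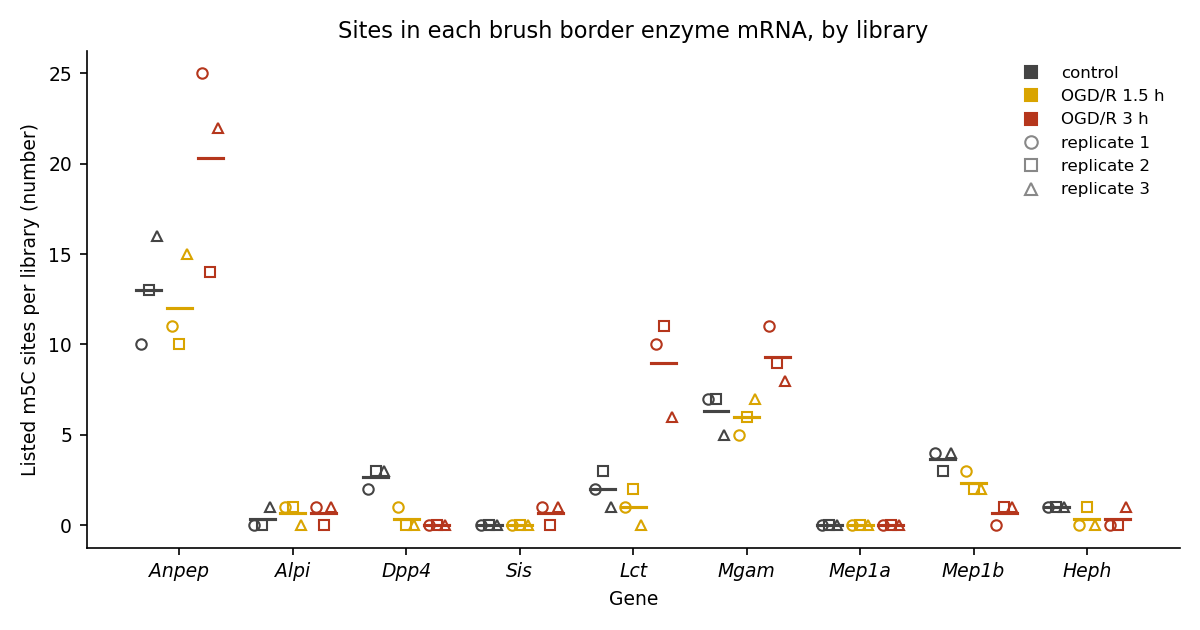
The vertical axis gives the number of listed m5C sites of each gene in each library, with circles, squares and triangles for replicates 1, 2 and 3, colours for the groups and a bar for the mean over 3 libraries. Anpep reaches 25 sites in OGD/R 3 h replicate 1, and Lct and Mgam lie higher in OGD/R 3 h than in the other groups. Dpp4 lies highest in control, and Mep1b lies lowest in OGD/R 3 h.

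Anpep, aminopeptidase N, removes amino acids from the N-terminus of small peptides. On chromosome 7 at 79821803 to 79848210, minus strand, its mRNA of 3797 nt in 21 exons carried 61 distinct sites, the most of the members and more than all but 26 of the 2607 genes with a site. Control replicates 1, 2 and 3 held 10, 13 and 16 sites, OGD/R 1.5 h replicates 11, 10 and 15, and OGD/R 3 h replicates 25, 14 and 22. OGD/R 3 h replicates 1 and 3 were high and replicate 2 lay among the control values, so these groups overlapped. Per 1000 cytosines of the transcript Anpep carried 53.7 sites, against 13.6 in Lct, 11.8 in Mep1b, 9.06 in Mgam and 7.11 in Alpi. The CDS held 48 of the 61 sites, the 3′ untranslated region 5, the start codon region 5 and the stop codon region 3.

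Of the Anpep sites 12 (19.7%) were listed in more than 1 group, near the 19.2% of all mRNA sites, and 21 of the 61 were listed in 1 library only. Just 1 site was listed in all 3 groups. That site, at 1201 nt, scored 98, 98 and 180 in control, 195 in OGD/R 1.5 h replicate 3 alone, and 86, 191 and 191 in OGD/R 3 h. The groups overlapped at this cytosine. The site 20 nt further on, at 1221 nt, scored 397, 151 and 504 in control and 79, 104 and 582 in OGD/R 3 h, which overlapped too, and it was not listed in OGD/R 1.5 h. At 2307 nt, in exon 17, the scores were 615, 147 and 130 in control and 698, 636 and 483 in OGD/R 3 h, with control replicate 1 inside the range of OGD/R 3 h. Again no OGD/R 1.5 h library listed it.

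Other Anpep sites were listed in all libraries of a group and in none of another. The cytosine at 48 nt was not listed in control, and scored 28, 98 and 14 in OGD/R 1.5 h and 23, 12 and 81 in OGD/R 3 h, low values that overlapped. The site at 2843 nt in exon 21 scored 747, 760 and 939 in control and was listed in no other library, although the scores in control were the highest of any Anpep site. Some stretches of Anpep held several sites. Within exon 2, 14 sites lay from 48 to 297 nt and 10 sites from 422 to 581 nt after the start of the start codon, and 5 sites lay from 1195 to 1265 nt in exon 7. Of the 14 sites in the first of these stretches 3 were listed in control, 7 in OGD/R 1.5 h and 8 in OGD/R 3 h. Member sites as a whole stood farther apart than others, since 33.8% had another listed site within 10 nt, against 66.9% of all mRNA sites.

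Dpp4, dipeptidyl peptidase 4, cleaves pairs of amino acids from peptides, incretin hormones among them. The gene lies on chromosome 2 at 62330073 to 62412231, minus strand. Its sites numbered 2, 3 and 3 in control, against 1, 0 and 0 in OGD/R 1.5 h and 0 in each OGD/R 3 h library, so control lay above both other groups. The 5 distinct sites were split between the CDS with 2 and the 3′ untranslated region with 3. The site in exon 26 shown above scored 94, 178 and 27 in control and was listed nowhere else. Close by, the site at 62332187 was listed in control replicates 2 and 3, with 38 and 24, and the site at 62332180 in OGD/R 1.5 h replicate 1, with 30.

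Mep1a and Mep1b code for the subunits of the meprins, zinc metalloproteases that cut larger peptides and proteins. Mep1a, on chromosome 17 at 43474329 to 43502773, has 724 cytosines in its mRNA of 2923 nt and no listed site. Mep1b, on chromosome 18 at 21072344 to 21100199, plus strand, carried 6 sites, all in the CDS. Control replicates held 4, 3 and 4 of them, OGD/R 1.5 h replicates 3, 2 and 2, and OGD/R 3 h replicates 0, 1 and 1. Every OGD/R 3 h library lay below every library of the other groups. The site at 21097321 in exon 14 had the highest median score of all member sites over the libraries that list them, with 1000, 1000 and 933 in control and 1000, 825 and 1000 in OGD/R 1.5 h. In OGD/R 3 h it was not listed in replicate 1 and scored 81 and 152 in replicates 2 and 3, below all other libraries. As 1000 is the cap, the size of this difference is not exact. In the same exon the site at 21097306 was listed in 2 control libraries with 206 and 443, in OGD/R 1.5 h with 192, 116 and 342, and not in OGD/R 3 h.

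Lct, lactase, splits the milk sugar lactose into glucose and galactose. It lies on chromosome 1 at 128284756 to 128328318, minus strand, and its mRNA of 6174 nt carried 23 sites. Control replicates 1, 2 and 3 held 2, 3 and 1 of them, OGD/R 1.5 h replicates 1, 2 and 0, and OGD/R 3 h replicates 10, 11 and 6. OGD/R 3 h lay above both other groups, which overlapped. In OGD/R 3 h, however, 0 of the 18 sites in the union of libraries were listed in all 3 replicates, while in control 1 of 3 sites was. That control site, in exon 8 at 3425 nt, scored 573, 640 and 180, and in OGD/R 3 h it was listed in replicate 2 alone with 77. Over all its listings, Lct had a median score of 304 in control and 69 in OGD/R 3 h, from 6 and 27 listings. The sites gained in OGD/R 3 h thus had lower scores and were shared by its libraries only in part. Of the 23 sites 22 lay in the CDS and 0 in the start codon region.

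Mgam, maltase-glucoamylase, releases glucose from the ends of starch fragments. On chromosome 6 at 40628831 to 40769122, plus strand, its transcript of 11854 nt in 94 exons is the longest of the members, and it carried 26 sites. Control replicates held 7, 7 and 5 sites, OGD/R 1.5 h replicates 5, 6 and 7, and OGD/R 3 h replicates 11, 9 and 8. Control and OGD/R 1.5 h overlapped and OGD/R 3 h lay above both. The site at 2341 nt in exon 21 was listed in 8 of 9 libraries, as was the Mep1b site at 21097321, and no member site was listed in all 9. It scored 309 and 119 in control replicates 1 and 2, 163, 159 and 124 in OGD/R 1.5 h, and 58, 51 and 49 in OGD/R 3 h. All OGD/R 3 h scores lay below all others. In the start codon region 3 sites were listed in OGD/R 3 h alone and 1 in OGD/R 1.5 h replicate 3, and a run of 5 sites in exon 91 spanned 10496 to 10541 nt, with 3 listed in control, 2 in OGD/R 1.5 h and 4 in OGD/R 3 h.

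Sis, sucrase-isomaltase, splits sucrose and isomaltose and is related to Mgam. Of the 5933 stretches of 21 nt in its mRNA, with cytosine read as thymine, 36 were also in that of Mgam. On chromosome 3 at 72888557 to 72967863, minus strand, Sis carried 2 sites, with a score of 73 at 72943511 in OGD/R 3 h replicate 1 and of 3 at 72966760 in OGD/R 3 h replicate 3. Control and OGD/R 1.5 h libraries listed none.

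Alpi removes phosphate groups, among others from bacterial lipopolysaccharide. The gene lies on chromosome 1 at 87098002 to 87101606, minus strand. Its 5 sites were listed in 1 library each, 1 in control replicate 3, 1 each in OGD/R 1.5 h replicates 1 and 2, and 1 each in OGD/R 3 h replicates 1 and 3. The groups did not differ beyond their spread, with scores from 16 to 198. For 1 of these sites the 21 nt around it, with cytosine read as thymine, were also found in Akp3, a related phosphatase gene with no listed site, and the 51 nt around it were not.

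Heph, hephaestin, oxidises iron as it leaves the enterocyte and lies on the basolateral side of the cell, not in the brush border. On chromosome X at 96455436 to 96574485, plus strand, it carried 2 sites in the 5′ untranslated region. Each control library listed the site in exon 1, with scores of 81, 46 and 66, and OGD/R 3 h replicate 3 listed it with a score of 1. The other site was listed in OGD/R 1.5 h replicate 2 alone with a score of 4. Of 8 other genes of iron handling 2 carried sites, too few genes to tell from the 12.4% of all genes. These were Fth1, which codes for ferritin heavy chain, and Tfrc, the transferrin receptor. Together they held 6, 7 and 6 sites in control. OGD/R 1.5 h libraries held 16, 14 and 18, and OGD/R 3 h libraries 19, 26 and 22. Most of this was Fth1, with 58 of the 64 distinct sites. Control libraries listed 5, 6 and 5 of its sites. Those of OGD/R 1.5 h listed 15, 13 and 16 and overlapped with the 15, 22 and 18 of OGD/R 3 h. Tfrc held 1 site in each control library, 1, 1 and 2 in OGD/R 1.5 h, and 4 in each OGD/R 3 h library.

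Genes that share the brush border with the members were compared by the same count, in lists chosen as above, beside 12.4% of all genes with a site. Of 14 other hydrolases of this membrane, 8 carried a site, with 13, 23 and 17 sites in control, against 17, 18 and 17 in OGD/R 1.5 h and 27, 29 and 25 in OGD/R 3 h. Ace carried 29 distinct sites, Enpep 20 and Ggt1 20, and all are also known from the proximal tubule of the kidney. All 10 genes of the structure of the microvilli carried sites, led by the motor protein gene Myo1a with 87, and by Ezr and Vil1 with 34 each, and the list held 46, 49 and 42 sites in control, against 33, 42 and 47 in OGD/R 1.5 h and 77, 72 and 74 in OGD/R 3 h. In these lists, as in the members and in all mRNA sites, each OGD/R 3 h library lay above each control library. Not every leading gene rose. Ace went from 1, 4 and 2 sites in control to 11, 11 and 7 in OGD/R 3 h, while Ggt1 went from 5, 12 and 6 to 3, 4 and 5, Enpep from 5, 4 and 5 to 1, 4 and 5, and Ezr from 6, 14 and 10 to 8, 7 and 9. Transporters went otherwise. Of 13 genes 9 carried a site, with Slc5a1, the glucose carrier of the membrane, ahead with 39, Npc1l1 with 7 and Slc3a1 with 5. They held 24, 20 and 18 sites in control and, overlapping with these, 22, 16 and 19 in OGD/R 3 h, but 7, 6 and 9 in OGD/R 1.5 h.

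Recurrence was counted as the share of the sites in the union of a group that all 3 of its libraries listed. For member sites it was 34.1% in control (15 of 44, 95% Wilson interval 21.9% to 48.9%), 20% in OGD/R 1.5 h (9 of 45, 10.9% to 33.8%) and 24.6% in OGD/R 3 h (17 of 69, 15.99% to 36.0%). The intervals overlap and cover counting error only. All mRNA sites had 26.5%, 18.0% and 31.0%, values that lie within the intervals of the members. Between groups, 23 of the 130 member sites (17.7%) were listed in more than 1 group, against 19.2% of all mRNA sites, and 5 were listed in all 3 groups. A pair of libraries of the same group shared 39.1% to 75.0% of their member sites, as a percent of the mean of both, with a median of 57.8% over 9 pairs. A pair from different groups shared 5.71% to 23.0%, with a median of 15.2% over 27 pairs. For all mRNA sites the medians were 57.7% and 13.5%.

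**Figure D3:**
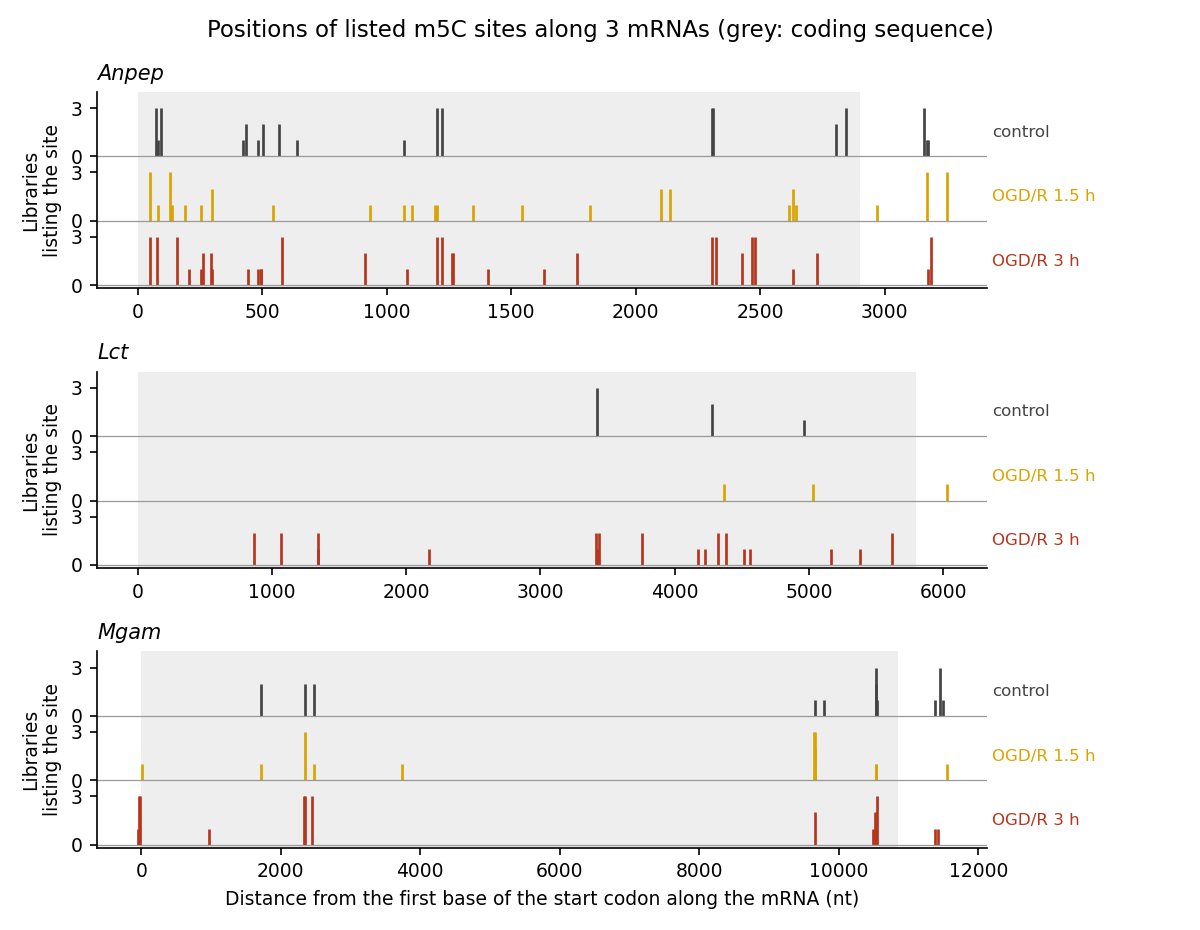
The horizontal axis gives the distance of each site from the first base of the start codon along the Anpep, Lct and Mgam mRNAs, with the coding sequence in grey, and the height of a line gives the number of libraries of the group, 1 to 3, that list the site. Few positions recur between the groups, and Mgam has no site between those at 3735 and 9650 nt.

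By region of the mRNA, member sites lay mostly in the CDS, with 101 of 130 (77.7%). The start codon region, up to 100 nt before and after the codon, held 10, the stop codon region 3, the 5′ untranslated region 2 and the 3′ untranslated region 14. Over all mRNA sites the CDS held 56.0% and the start codon region 23.9%, against 7.69% for the members. Divided by the cytosines of the 9 transcripts, however, the start codon region was the densest part of the members, with 26.7 sites per 1000 cytosines, followed by the 3′ untranslated region with 12.6, the CDS with 11.7, the stop codon region with 6.26 and the 5′ untranslated region with 5.57. The start codon region holds 3.42% of these cytosines, and its 10 sites were 5 in Anpep, 4 in Mgam and 1 in Alpi. Their listings had a median score of 12.5, against 108 in the CDS. The rank of this region thus rests on few sites, many with low scores.

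The share of member sites of a library in the start codon region was 8.01 ± 1.53% in control, 7.32 ± 2.44% in OGD/R 1.5 h and 11.3 ± 1.25% in OGD/R 3 h (SD, 3 libraries). Every OGD/R 3 h library, with at least 10.0%, lay above every control library, with at most 9.68%. The difference was 3.30 percentage points, and 12.7 points over the members other than Anpep, an alternative chosen after the data were seen. All start codon region sites of control libraries were in Anpep, with 2, 2 and 3, and OGD/R 3 h libraries listed 2 each in Anpep, 3, 2 and 2 in Mgam and 1 in Alpi, in replicate 1. The difference over all members was -0.46 points when only sites with no neighbour up to 10 nt away in their library were kept. The 3′ untranslated region took up 16.96 ± 4.71% in control libraries, 13.4 ± 4.93% in OGD/R 1.5 h and 4.96 ± 0.775% in OGD/R 3 h, with no overlap between control and OGD/R 3 h. No OGD/R 3 h library listed a member site in the stop codon region, against 5.83 ± 2.25% in control. The control libraries listed 2 distinct sites there, both in Anpep, the only member with sites in this region. Over all mRNA sites the mean for the 3′ untranslated region went from 6.85% in control to 7.80% in OGD/R 3 h, the other way from the members. For the stop codon region it went from 4.70% to 5.72%, the other way from the Anpep sites. For the start codon region it went from 27.8% to 30.8%, the same way as the members. Within the coding sequence, codon regions included, 44 of 110 sites (40.0%) were at the third codon position, where 41.4% of the coding cytosines lie.

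Median scores of member sites were higher than those of all mRNA sites in every library. The median score of the member sites was 112.5, 149 and 150 in control replicates 1, 2 and 3, 69.5, 72.5 and 87.5 in OGD/R 1.5 h and 76.0, 69.0 and 75.5 in OGD/R 3 h. All mRNA sites had medians of 9, 10 and 10 in control, of 7 in each OGD/R 1.5 h library and of 12, 13 and 11 in OGD/R 3 h. For the members the control libraries lay above those of both other groups, while for all mRNA sites OGD/R 3 h lay highest. The log2 ratio of the mean medians to control was -0.90 for OGD/R 3 h and -0.84 for OGD/R 1.5 h, beyond the spreads between libraries. At the 3 member sites listed in all 6 libraries of control and OGD/R 3 h, all of them in Anpep, the ratio was 0.07, and without Anpep the ratio for OGD/R 1.5 h was -0.15. Scores under 10 made up 6.90% of the member listings in control, 8.82% in OGD/R 1.5 h and 4.88% in OGD/R 3 h, against 49.8%, 54.0% and 45.7% of all mRNA listings. By region, over all libraries, the median score of members was 12.5 in the start codon region (26 listings) and 108 in the CDS (211 listings), where all mRNA sites had 7 in both. In the 3′ untranslated region members were lower, with 38 (30 listings) against 46.

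**Figure D4:**
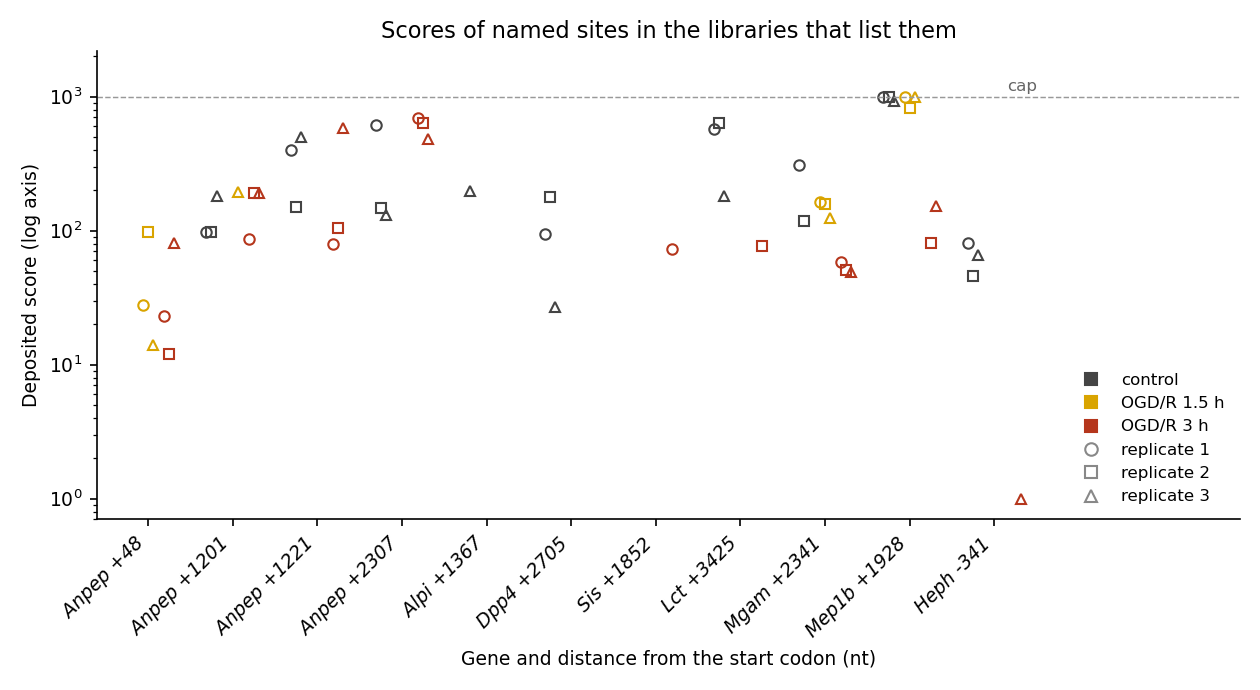
The vertical axis gives the deposited score on a log scale, up to the cap of 1000, of each site named by the rule, in each library that lists it, with circles, squares and triangles for replicates 1, 2 and 3. The Mep1b site lies at 825 to 1000 in control and OGD/R 1.5 h and at 81 and 152 in OGD/R 3 h, and the Mgam site lies at 49 to 58 in OGD/R 3 h and at 119 or more in the other groups.

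The bases around the member sites were taken from the mm10 genome. The context was CG at 15 of the 130 sites (11.5%), CHG at 47 (36.2%) and CHH at 68 (52.3%), where H stands for any base but G. All mRNA sites had 22.4%, 37.9% and 39.7%, and all cytosines of the 9 transcripts had 7.74%, 23.9% and 68.4%. In each library CHH made up 43.6 ± 4.33% of the member sites in control, 46.7 ± 11.04% in OGD/R 1.5 h and 51.5 ± 5.00% in OGD/R 3 h (SD), with overlap between libraries. CG made up 19.2%, 20% and 9.68% in control, 4.55%, 4.55% and 4.17% in OGD/R 1.5 h, with no overlap, and 10.4%, 11.4% and 7.50% in OGD/R 3 h. These shares rest on few sites, with 7 distinct CG sites in control, 3 in OGD/R 1.5 h and 7 in OGD/R 3 h. Over all mRNA sites CG had means of 27.4%, 21.98% and 20.99%, which fell from control too. The CHH difference of OGD/R 3 h to control, 7.98 percentage points, was -4.00 points over the members other than Anpep. With sites in all 3 libraries only it was -6.27 points. The share of CHH over all mRNA sites went from 33.3% to 41.8%, so the members did not stand out. Guanine made up 33.2% of the bases within 10 nt of the member sites and 35.5% around all mRNA sites, against 22.9% around all cytosines of the 9 transcripts. The letters CNGGG from the site on, described for the methyltransferase NSUN2, were found at 7 member sites (5.38%), at 3.27% of all mRNA sites and at 2.28% of the cytosines of the members. CTCCA, described for NSUN6, was at 0 member sites, at 0.421% of all mRNA sites and at 0.788% of the cytosines of the members. At so low a share nothing is read from the 0. Both motifs were searched on the strand of the mRNA only and do not overlap.

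No member site lay in an intron or on the other strand of a member, over gene spans of 550686 nt in all. Over all protein-coding genes 9.38% of the sites on the strand of a gene lay outside its exons. Of the member sites 2 lay within 5 nt of an exon edge (1.54%), as did 4.62% of the cytosines of the 9 transcripts. With cytosine read as thymine, the 21 nt around a member site were found in an mRNA of another gene for 11 of 130 sites, and the 51 nt around it for 0.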

How the data were processed

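RNA was treated with bisulfite in 9 libraries, 3 per group. The authors trimmed reads with cutadapt 1.9.3 and used meRanGh for the alignment to mm10 and meRanCall for the calls, with lower limits of 0.1 on the level and 10 on the coverage. The deposited score has a cap of 1000 and is not normalized for depth. At nearly all sites compared in OGD/R 3 h replicates 1 and 2 it was 10 times the call score of meRanCall, rounded down, and the other files were not compared. How the mock libraries entered the calls is not given in the sources used here. The read depth is unknown and coverage was held only for part of the sites of control and OGD/R 3 h, so no interval on a level is given.

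Sites were placed on GRCm38.p6 with its RefSeq transcripts (Python 3.11.15, numpy 2.4.6, scipy 1.17.1, pysam 0.24.0, samtools 1.23.1, matplotlib 3.10.9), and all 25890 lay on a cytosine of their strand. Assignment was tested on simulated data. Positions count from 1. The members and marker lists were chosen with earlier results of these data known. Sites named are those listed in all 3 libraries of at least 2 groups and, per member, that listed in most libraries. Of each marker list up to 3 genes with most sites are named, along with the 5 genes most like the members. No test was made. Alternatives were sites in at least 2 or all 3 libraries, a score of at least 10, no site within 10 nt, the longest transcript, other denominators, regions and score measures, and each library left out, and, chosen after seeing the data, members other than Anpep.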

Additional observations from a re-analysis of the deposited data

How the results depend on the processing

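The 18 results compared were recomputed under 204 alternatives, of which 158 stayed within the spread between libraries (recurrent shares within their interval, counts of members within 1.5 times) and 41 moved beyond it. The sign changed under 16, and 5 of these are called reversed, since the reported value was larger than its own spread. The other 11 concern values within their spread, namely the share of mRNA sites of OGD/R 3 h and the start codon and CHH differences of OGD/R 1.5 h, for which no direction can be given.

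With sites in all 3 libraries only, the log2 ratio of OGD/R 3 h to control was 0.18 for member sites, -0.32 for their share of mRNA sites, a change of sign from 0.18, and -0.59 for the median score. The ratio of OGD/R 1.5 h to control was -0.74 for member sites and -0.50 for the median score, and the share ratio of OGD/R 3 h to OGD/R 1.5 h reversed to -0.0943 from 0.40. Members with a site fell to 3 in OGD/R 1.5 h and 2 in OGD/R 3 h. OGD/R 3 h minus control was 10.2 points for the start codon region and reversed to -6.27 points for CHH, and the CHH difference of OGD/R 1.5 h turned from 3.15 to -20 points. Fewer sites enter by construction.

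With sites in at least 2 libraries, OGD/R 1.5 h to control gave -0.94 for member sites, -0.54 for their share and -0.49 for the median score, and OGD/R 3 h to OGD/R 1.5 h gave 1.298 and 0.56. Members with a site fell to 3 in OGD/R 1.5 h and 4 in OGD/R 3 h. The recurrent share rose by construction to 53.6% in control, 64.3% in OGD/R 1.5 h and 45.9% in OGD/R 3 h. With a library left out, again by construction, it was 42.5% to 60.0% in control, 24.3% to 35.3% in OGD/R 1.5 h and 38.9% to 41.9% in OGD/R 3 h.

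With no site within 10 nt, the share ratio was 0.53 for OGD/R 3 h to control and 0.70 for OGD/R 3 h to OGD/R 1.5 h, and the ratio of sites was -0.12 for OGD/R 1.5 h to control. OGD/R 3 h minus control reversed to -0.459 points for the start codon region and was 15.9 points for CHH. With a score of at least 10, the share ratio of OGD/R 3 h to OGD/R 1.5 h was 0.23, and the start codon region differed from control by 7.40 points in OGD/R 3 h and 5.00 points in OGD/R 1.5 h, the latter a change of sign from -0.69. With 50 nt around the codon these differences were 7.44 and 5.81 points. The cause was not tested for these settings.

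Over members other than Anpep, an alternative chosen after seeing the data, OGD/R 1.5 h to control gave -0.58 for sites, -0.45 for their share and -0.15 for the median score. The median score of OGD/R 3 h gave -1.18, the start codon region differed by 12.7 points in OGD/R 3 h and 3.70 points in OGD/R 1.5 h, the CHH difference of OGD/R 3 h reversed to -4.00 points, and its recurrent share was 15.8%. At sites in all 6 libraries the median score ratio reversed to 0.070 for OGD/R 3 h and was -0.0541 for OGD/R 1.5 h, at 3 sites and 1 site. The latter is the Mep1b site at 21097321, which is at the cap of 1000 in libraries of both groups, so its ratio is not exact. No paired analysis was possible because each group was treated as 1 sample and no culture is named. The unknown depth limits all counts of sites.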

Other observations

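The numbers of sites most like those of the members over the 9 libraries, among 491 genes with at least 10 distinct sites, ordered by Pearson's r, were those of Tpm3, Cd74, Cdc42, Myh9 and Slc16a10. The libraries fall into 3 groups, so r itself is not given and the order is a description. Myh9, a heavy chain of non-muscle myosin, held 22, 20 and 23 sites in control, against 11, 12 and 15 in OGD/R 1.5 h and 35, 28 and 27 in OGD/R 3 h. Cd74, the invariant chain of antigen presentation, held 2, 3 and 3, then 0, 0 and 2, then 10, 7 and 8.

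Of 9 genes of blood and neutrophils, 5 carried sites, and these were listed in OGD/R 3 h alone. Each OGD/R 3 h library held the same 52 sites, with 25 in Hbb-bs, 9 in S100a8 and 7 in S100a9, and control and OGD/R 1.5 h libraries held 0. All 52 were listed in all 3 libraries, against 17 of 69 member sites in that group. The part of blood cells in the values of the members was not tested.

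The base after a member site was T at 66 of 130 sites (50.8%), against 30.8% of all mRNA sites and 30.3% of all cytosines of the 9 transcripts. CTG from the site on was found at 39 member sites (30.0%), 18.6% of all mRNA sites and 10.8% of these cytosines. CTGG, which lies within CTG sites, was found at 14.6%, 6.14% and 3.87%. These counts were chosen after the windows had been seen.

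Mgam listed no site over 5914 nt of its mRNA, from exon 31 to exon 83, a stretch with 1498 of its 2870 cytosines. With cytosine read as thymine, 27.8% of the stretches of 51 nt of this mRNA occur more than once in it. Of these, 70.8% lie in the stretch without sites, which makes up 49.9% of the mRNA. Of the 26 Mgam sites, 0 lie in the centre of such a repeated stretch. At 21 nt, 42.2% of the stretches are repeated and 5 of the 26 sites lie in the centre of such a stretch. In Anpep and Lct, where 0 stretches of 51 nt are repeated, the widest gaps between neighbouring sites were 282 and 1242 nt. The stretches before the first and after the last site of an mRNA were not counted as gaps. Whether repeated stretches were mapped was not tested.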
